A study of Mus musculus with 2 samples.

Results

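Chemokines are small secreted proteins that direct the migration of white blood cells, and they act through receptors that couple to inhibitory G proteins. Homeostatic chemokines are made without infection, largely by the stroma of lymphoid organs, and set up the B cell follicles and T cell zones of the spleen. Inflammatory chemokines are induced by infection, injury or cytokines and recruit monocytes, granulocytes and effector lymphocytes, while atypical receptors bind and remove chemokines without classical signalling.

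Members were all genes with a Ccl, Cxcl, Xcl, Cx3cl, Ccr, Cxcr, Xcr, Cx3cr or Ackr symbol followed by a digit, plus Pf4 and Ppbp. They were found by name, without use of their signals. The rule took 53 of the 12422 probe sets that are not controls, of which 49 name a single gene and 4 name several. The single-gene probe sets measured 44 of 8251 named genes: 4 homeostatic ligands, 21 inflammatory ligands and 19 receptors. Ligands used in both settings or carried by platelets, such as Ccl22, Xcl1 and Pf4, were counted as inflammatory. Genes such as Ccl20, Ccr10, Cxcl16, Cxcr1, Cxcr6 and Ppbp were named alone by no probe set and are not analysed here.

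The samples were 2 oligonucleotide arrays of mouse spleen total RNA, bought from Clontech under a single catalogue number and called array 1 and array 2 here. The labels name no strain, age, sex, genotype or treatment, and they do not say whether the arrays shared a tube, an animal or a labelling reaction. There is 1 group and no contrast, so no test was made and the SD between the arrays may be technical. The number of arrays limits the precision. In bulk RNA, fewer cells of a type and less RNA per cell cannot be told apart. Signals of different probe sets depend on their sequences, so genes are set against a cutoff and not against each other.

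A gene was called bright when its intensity exceeded the 60th percentile of the array on both arrays, 346.32 on array 1 and 342.22 on array 2. The background was taken from 15 bacterial control probe sets, with no target in mouse, whose highest signals were 95 and 76.2. Marker lists were read for the tissue, beside a bright share of 45.2% over all named genes. Bright were 7 of 7 B cell genes, 7 of 7 T cell genes, 9 of 9 macrophage genes and 3 of 4 dendritic cell genes. So were 7 of 8 neutrophil genes, 5 of 5 red cell precursor genes and 2 of 3 platelet genes. The 2 of 5 cytotoxic cell genes, or 40%, and 4 of 7 stromal and endothelial genes, or 57.1%, lay near the share of all genes. Of 10 pancreas genes, which mark the neighbouring organ, 8 were bright as well, with Ctrb1 at 23276.2 and 25030.4. The 2 that were not bright were Ins2 and Gcg. The median log2 signal of the 10 was 11.9, beside 8.29 over all named genes. The part of pancreas RNA in the chemokine signals was not tested.

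Bright signals were found for Cxcl12, Cxcl13, Ccl5, Ccl9, Cxcl9 and the receptors Ccr6, Ccr7, Cxcr3, Cxcr4, Cxcr5, Cx3cr1 and Xcr1. Of the 44 members 12 were bright, or 27.3%, beside 45.2% of all named genes. They were 2 of 4 homeostatic ligands, 3 of 21 inflammatory ligands, or 14.3%, and 7 of 19 receptors, or 36.8%. On both arrays, 28 of 44 members gave more signal than the highest bacterial control, beside 73.9% of all named genes. At or below that control on both arrays were 13 members, which were Ccl25, Cxcl14, Ccr4, Ccr8 and 9 inflammatory ligands. The median log2 signal of the members, with values under 41.8 set to that floor, was 7.47, beside 8.29 over all named genes.

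Among the homeostatic ligands, Cxcl13, made by follicular stroma to draw B cells into follicles, gave an intensity of 1535.8 on array 1 and 1690.6 on array 2, or 1613 ± 109 (SD, n = 2 arrays here and below). Cxcl12, which retains blood cell precursors and plasma cells in their niches, gave 2583.3 and 2637.4, or 2610.35 ± 38.3. Both lay above the cutoff on both arrays by a wide margin. Cxcl12 was read by 2 further probe sets, at 2172.8 and 2185.4 and at 653.8 and 489.6, and all 3 were bright. The dimmest of them carries the suffix _f_at, which marks probes shared by a family of similar sequences. Ccl25, the ligand of thymus and small intestine, gave 16.3 and 10.4, and Cxcl14, a chemokine of epithelia, gave 55.3 and 26.8. Neither exceeded the bacterial controls on either array.

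The T zone ligands Ccl19 and Ccl21, which guide T cells and dendritic cells through Ccr7, had no single-gene probe set. The mouse genome is known to hold near-identical copies of both. The probe set annotated to Ccl19 names 10 genes, among them Ccl19-ps1 and a series of predicted genes. It gave 3352.3 on array 1 and 3361.9 on array 2, or 3357 ± 6.79. The probe set annotated to the Ccl21 genes, Ccl21a, Ccl21b, Ccl21c and Ccl21d among 9 names, gave 4728.9 and 6389.5, or 5559 ± 1174. Both probe sets were far above the cutoff on both arrays, and neither signal can be assigned to a single copy. With them, and with the Ccl27 copies, 4 of 7 homeostatic ligands were bright, beside 45.8% of all named genes when such probe sets are counted. The Ccl27 copies, a chemokine of skin, were read by 2 probe sets at 81.9 and 102.6 and at 21.2 and 33, of which the former exceeded the control on array 2 only.

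**Figure D1:**
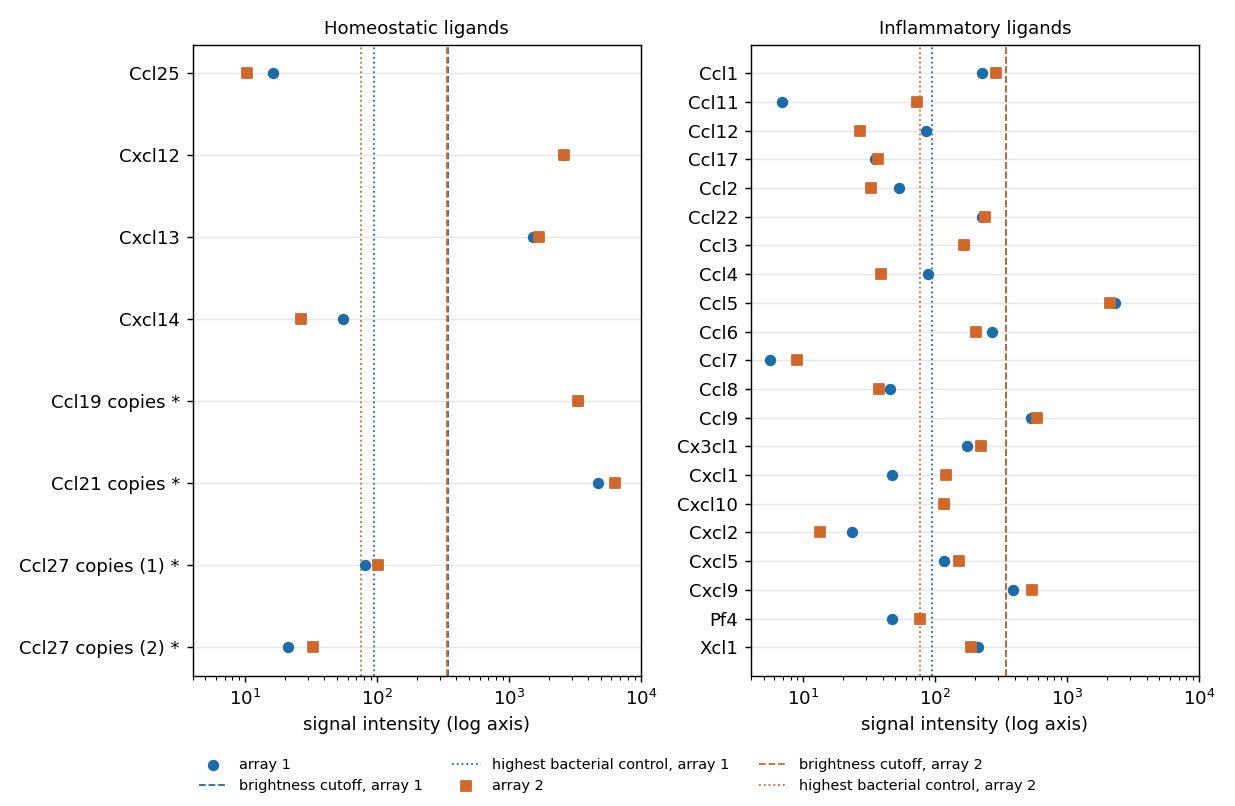
Signal intensity (log axis) of homeostatic ligands, left, and inflammatory ligands, right, with a circle for array 1 and a square for array 2. Dashed lines mark the brightness cutoffs, 346.32 and 342.22, and dotted lines the highest bacterial controls, 95 and 76.2. A star marks probe sets that name several genes, with 2 probe sets for the Ccl27 copies. Cxcl12, Cxcl13 and the copies of Ccl19 and Ccl21 lie to the right of the cutoffs on both arrays, as do 3 of 21 inflammatory ligands.

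The copies are shown here by their promoter windows, 250 bases before and 50 bases after the annotated start. Likeness of these windows does not show why genes share a probe set. All sequences are from RefSeq on build GRCm38.p6, whose promoter table held 36 of the 44 members. The Ccl21a window is chr4:42773942-42774241 on the minus strand and the Ccl21d window is chr4:41903363-41903662 on the plus strand. At an offset of 1 base they matched at 297 of 299 positions, or 99.3%. The windows of Cxcl1 and Cxcl2, printed below, matched at 30.2% of positions at their best offset within 10 bases. Measured in the same way, the listed window of Ccl21b matched that of Ccl21a at 32.5%. The window of Cxcl13, chr5:95956689-95956988 on the plus strand, is given as the follicle ligand with a bright single-gene signal. Capitals mark its TATAAA, which has the letters of a TATA box core and begins at position -46 from the annotated start. Whether it acts as a TATA box was not tested.
Ccl21a: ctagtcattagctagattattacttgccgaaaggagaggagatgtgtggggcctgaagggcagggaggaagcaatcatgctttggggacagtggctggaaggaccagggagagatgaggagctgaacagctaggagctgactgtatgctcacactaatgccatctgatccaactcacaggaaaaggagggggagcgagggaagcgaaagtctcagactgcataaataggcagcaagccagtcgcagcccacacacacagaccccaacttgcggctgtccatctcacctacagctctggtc
Ccl21d: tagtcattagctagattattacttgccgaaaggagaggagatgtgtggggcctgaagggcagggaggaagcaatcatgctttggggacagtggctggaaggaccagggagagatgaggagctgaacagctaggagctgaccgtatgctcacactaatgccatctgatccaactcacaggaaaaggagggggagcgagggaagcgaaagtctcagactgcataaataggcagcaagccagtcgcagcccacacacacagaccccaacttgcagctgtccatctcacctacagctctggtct
Cxcl13: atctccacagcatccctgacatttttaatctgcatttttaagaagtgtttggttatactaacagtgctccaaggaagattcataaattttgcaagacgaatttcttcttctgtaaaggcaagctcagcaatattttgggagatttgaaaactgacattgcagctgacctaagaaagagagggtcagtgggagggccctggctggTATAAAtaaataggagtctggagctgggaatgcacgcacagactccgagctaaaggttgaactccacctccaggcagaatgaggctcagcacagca

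The inflammatory ligands were mostly dim. The 3 bright members were Ccl5, Ccl9 and Cxcl9. Ccl5, a product of T cells and natural killer cells that attracts T cells and monocytes, gave 2289.9 and 2101.9, or 2196 ± 133. Ccl9, a rodent chemokine of macrophages and other myeloid cells, gave 529.3 and 594.7, or 562 ± 46.2. Cxcl9, which interferon gamma induces in macrophages and dendritic cells, gave 390.2 and 545.8, or 468 ± 110.03. Of the bright members Cxcl9 lay nearest to the cutoff and had the widest gap between the arrays, 1.40-fold.

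A further 8 inflammatory ligands lay between the bacterial control and the cutoff on both arrays, at 116.3 to 271.1 on array 1 and 117.4 to 291.2 on array 2. Among them Cxcl10, which like Cxcl9 is induced by interferon and binds Cxcr3, gave 117.1 and 117.4. Ccl3, a macrophage product that binds Ccr1, gave 164 and 165.2. Ccl22, a dendritic cell ligand of Ccr4, gave 227 and 237.3, and Xcl1, a product of cytotoxic lymphocytes, gave 212.8 and 186.5. The membrane-bound Cx3cl1 gave 174.9 and 221.4, the myeloid Ccl6 gave 271.1 and 205, the neutrophil ligand Cxcl5 gave 116.3 and 151.2, and Ccl1, a ligand of Ccr8, gave 228.3 and 291.2. A second probe set read Ccl1 at 47.2 and 24.1 and another read Cx3cl1 at 23.6 and 26.9, so both genes had a probe set at the level of the controls. For Ccl1 the brighter probe set carries the suffix _g_at and the dimmer carries no such suffix. For Cx3cl1 the dimmer carries the suffix _r_at.

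The other 10 inflammatory ligands did not exceed the control on both arrays. Ccl7, a monocyte chemokine, gave 5.6 and 9, under the floor on both arrays. Its relatives Ccl2, Ccl8 and Ccl12, which also attract monocytes, gave 53.6 and 32.6, 45.1 and 37.4, and 85.6 and 27.1. The eosinophil chemokine Ccl11 gave 6.9 and 73.3, and Ccl4, a relative of Ccl3, gave 88.4 and 38.9. Ccl17, the other ligand of Ccr4, gave 35.1 and 36.6, and Pf4, stored in platelet granules, gave 46.8 and 76.1. Of the ligands of Cxcr2, the receptor that draws neutrophils, Cxcl2 gave 23.5 and 13.5, while Cxcl1 gave 47.4 and 120.7 and exceeded the control on array 2 only. A second probe set read Cxcl1 at 20.2 and 44.2, below the controls on both arrays.

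Promoters were searched on both strands for GGGANTTTC, a form of the kappaB site of NF-kB, GAAANNGAA, the core of the interferon-stimulated response element, and TATAAA. No match of 1 motif overlapped a match of another in the members' windows. The kappaB form was found in 5 of 36 members, Cxcl1, Cxcl2, Cxcl9 and the receptor genes Ccr3 and Cxcr2, beside 1.29% of the 27025 genes in the table. Genes can have several windows, and a gene was counted once if any window matched, with 38 windows for the 36 members. Of all 32851 windows 1.11% held the form. Of these 5 only Cxcl9 was bright. The interferon element was found in 6 of 36 members, Ccl1, Ccl3, Ccr2, Cxcl9, Cxcl10 and Cxcl14, beside 9.76% of genes and 8.56% of windows in the table, and Cxcl9 was again the only bright member. It was also found in the window of Ccl19. TATAAA was found in 12 of 36 members, beside 15.7% of genes and 13.6% of windows in the table, and 5 of these 12 were bright: Ccl9, Cxcl9, Cxcl13, Cxcr4 and Xcr1. A match describes the letters of a window and says nothing of binding in the spleen.

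Shown first are the windows of Cxcl1, chr5:90890995-90891294 on the plus strand, and Cxcl2, chr5:90903649-90903948 on the plus strand, as neutrophil ligands that were not bright. Capitals mark the kappaB form, which begins at positions -71 and -97. They are followed by the windows of Cxcl9, chr5:92328030-92328329 on the minus strand, and Cxcl10, chr5:92348840-92349139 on the minus strand, since both ligands bind Cxcr3 and only Cxcl9 was bright. Capitals there mark the interferon element, which begins at positions -175 and -213. In the Cxcl9 window the kappaB form and TATAAA, which the Cxcl10 window lacked, were left in small letters.
Cxcl1: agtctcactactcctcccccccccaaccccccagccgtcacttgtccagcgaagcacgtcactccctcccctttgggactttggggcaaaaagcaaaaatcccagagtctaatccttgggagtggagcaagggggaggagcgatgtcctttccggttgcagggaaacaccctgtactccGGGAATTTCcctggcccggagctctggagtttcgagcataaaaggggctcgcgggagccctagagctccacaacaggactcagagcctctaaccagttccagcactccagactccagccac
Cxcl2: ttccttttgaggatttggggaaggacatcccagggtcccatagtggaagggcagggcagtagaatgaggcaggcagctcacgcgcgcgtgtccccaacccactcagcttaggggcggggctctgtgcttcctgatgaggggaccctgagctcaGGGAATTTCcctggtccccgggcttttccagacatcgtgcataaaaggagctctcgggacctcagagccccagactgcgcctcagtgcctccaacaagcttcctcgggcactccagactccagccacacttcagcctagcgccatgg
Cxcl9: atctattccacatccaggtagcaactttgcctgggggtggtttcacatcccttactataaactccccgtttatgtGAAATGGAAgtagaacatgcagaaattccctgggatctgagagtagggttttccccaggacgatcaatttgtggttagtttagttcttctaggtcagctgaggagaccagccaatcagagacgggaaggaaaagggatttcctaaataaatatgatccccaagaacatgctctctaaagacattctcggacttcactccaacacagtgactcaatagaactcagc
Cxcl10: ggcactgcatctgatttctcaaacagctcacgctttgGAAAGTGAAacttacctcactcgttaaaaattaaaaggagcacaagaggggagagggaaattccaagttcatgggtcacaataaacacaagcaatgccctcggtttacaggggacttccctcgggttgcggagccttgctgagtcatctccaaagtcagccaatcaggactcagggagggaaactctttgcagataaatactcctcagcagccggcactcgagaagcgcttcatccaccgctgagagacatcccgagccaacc

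A list of 4 receptors of follicle and T zone traffic was chosen with earlier results of these data known. All 4 were bright, beside 45.2% of all named genes, and no test was made. A cutoff at the 75th percentile left 3 of them bright, without Ccr7, beside 28.5%. Cxcr5, with which B cells and follicular helper T cells sense Cxcl13, gave 749.3 and 726.7, or 738 ± 15.98. Ccr7, which brings naive T cells and activated B cells toward the T zone, gave 454.8 and 559.5, or 507 ± 74.03. Cxcr4, the receptor of Cxcl12, gave 796.2 and 919.6, or 858 ± 87.3. Ccr6, a receptor of mature B cells and some helper T cells, gave 2963.4 and 2809.9, or 2887 ± 109. The gaps between the arrays ran from 1.03-fold for Cxcr5 to 1.23-fold for Ccr7, and every value was above the cutoff.

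Among receptors of effector T and natural killer cells, Cxcr3, which is carried by type 1 helper and cytotoxic cells, gave 465.4 and 498.3, or 482 ± 23.3, and was bright. Ccr4, at 29.3 and 32.5, and Ccr8, at 28.1 and 35, both found on type 2 helper and regulatory T cells, lay below the bacterial controls on both arrays. Ccr9, which directs lymphocytes to the small intestine, gave 25.7 and 91.5 and exceeded the control on array 2 only. Xcr1, the receptor that marks cross-presenting dendritic cells, gave 524 and 537.2, or 531 ± 9.33, and was bright.

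Of 5 receptors of monocytes and granulocytes 1 was bright, or 20%, beside 45.2% of all named genes. Cx3cr1, found on monocytes and tissue macrophages, gave 416.5 and 415.7, or 416 ± 0.566. Ccr2, which inflammatory monocytes need to leave the bone marrow, gave 345.7 and 534.3, or 440.0 ± 133. It was just outside the cutoff on array 1 and above it on array 2, while Cxcl9 was the member just inside. Ccr1, a receptor of Ccl5 and Ccl9 on myeloid cells, gave 175.3 and 157.3, the eosinophil receptor Ccr3 gave 219.5 and 147.2, and the neutrophil receptor Cxcr2 gave 178.6 and 220.1. These 3 lay between the control and the cutoff on both arrays. Ccr1l1, a relative of Ccr1, gave 99.2 and 43.8.

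None of the 4 atypical receptors was bright, beside 45.2% of all named genes. All 4 lay above the bacterial controls on both arrays, beside 73.9% of all named genes. Ackr1, a chemokine binder of red cells and venules, gave 214.7 and 239.6. Ackr2, a scavenger of inflammatory CC chemokines, gave 158.9 and 190. Ackr3, which takes up Cxcl12, gave 183 and 256.3. Ackr4, which takes up Ccl19, Ccl21 and Ccl25, gave 186.6 and 126.

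**Figure D2:**
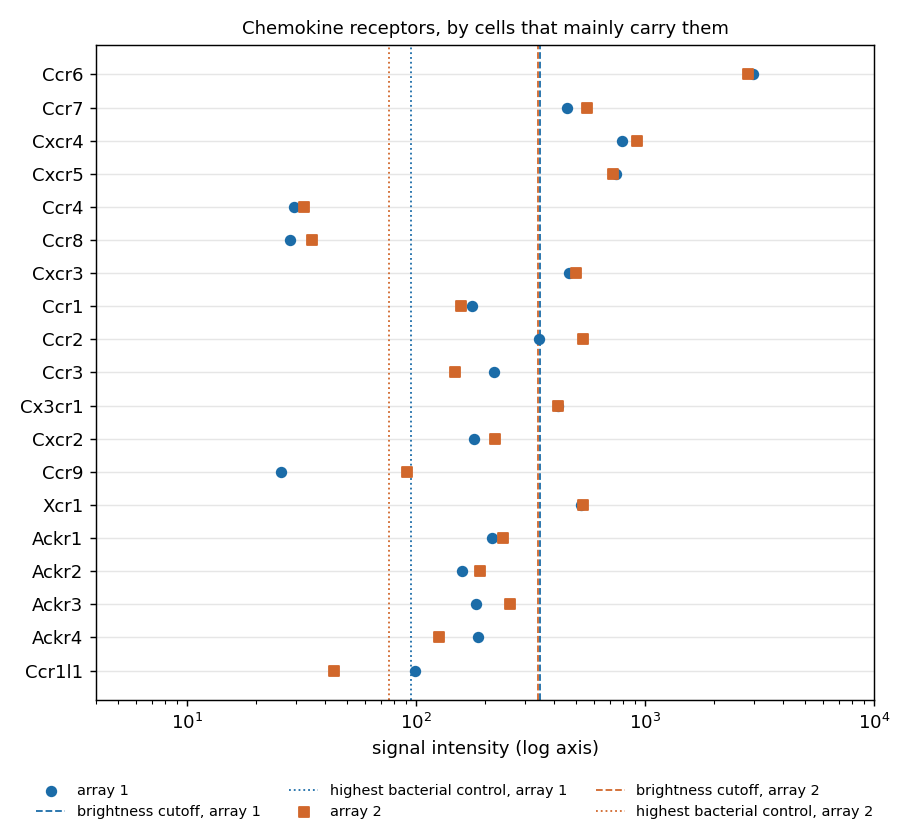
Signal intensity (log axis) of 19 chemokine receptors on array 1 (circles) and array 2 (squares), ordered from the top by follicle and T zone traffic, effector T cells, monocytes and granulocytes, mucosal traffic, dendritic cells, atypical receptors and Ccr1l1. Dashed lines mark the brightness cutoffs and dotted lines the highest bacterial controls. Ccr6, Ccr7, Cxcr4 and Cxcr5 lie right of the cutoffs, and the 4 atypical receptors lie between dotted and dashed lines.

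Ligands were then read beside their receptors. Of 37 listed ligand and receptor pairs, 23 had both sides measured by single-gene probe sets. In 3 of these both sides were bright: Cxcl13 with Cxcr5, Cxcl12 with Cxcr4, and Cxcl9 with Cxcr3. Of all named genes 45.2% were bright, and the pairs share genes such as Cxcl12, Cxcr3 and Ccr1. Whether 3 of 23 differs from the count among unrelated pairs was not tested. In 3 pairs the receptor was bright and the ligand was not, namely Cxcl10 with Cxcr3, Cx3cl1 with Cx3cr1 and Xcl1 with Xcr1. In 3 pairs the ligand was bright and the receptor was not, namely Ccl5 and Ccl9 with Ccr1, and Cxcl12 with Ackr3. Neither side was bright in 14 pairs, among them Ccl25 with Ccr9, Ccl17 with Ccr4 and Cxcl2 with Cxcr2. With the probe sets of the Ccl19 and Ccl21 copies counted beside Ccr7, 5 pairs had both sides bright.

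Genes that carry the signal of chemokine receptors into the cell were bright in 17 of 21 measured cases of 32 listed. Gnai2, an inhibitory G protein subunit, gave 18868.3 and 18335.6 with a probe set of suffix _f_at. The GTPases Rac2 and Rac1, which drive actin assembly at the front of a moving cell, gave 9529.5 and 9879.2, and 8251.2 and 6977.4. Gnai3, a further inhibitory subunit, gave 2987.5 and 3978.7. The 4 that were not bright were Gng2, a G protein gamma subunit, at 287.8 and 209.3, the Rac activator Tiam1 at 161.3 and 182.7, the integrin-activating GTPase Rap1b at 77.1 and 147.6 with a probe set of suffix _r_at, and the phospholipase Plcb3 at 24.3 and 42.3. The share bright, 81.0%, stood beside 45.2% of all named genes.

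Lymphotoxin and TNF signals to stroma are known to maintain Cxcl13, Ccl19 and Ccl21 in the spleen. Of 7 measured genes of this path 5 were bright, or 71.4%, beside 45.2% of all named genes, and 2 were with the cutoff at the 75th percentile, beside 28.5%. Ltb, the membrane subunit of lymphotoxin, gave 4839.5 and 4688.8, and its receptor Ltbr gave 506.2 and 384.9. Nfkb2 and Relb, the subunits of noncanonical NF-kB, gave 836.2 and 866.3, and 627.5 and 622.7, and the TNF receptor Tnfrsf1a gave 818.8 and 609.1. Lta, the soluble subunit, gave 361.3 and 329.1 and passed the cutoff on array 1 only. Tnf gave 160.1 and 114.6 and was not bright.

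The arrays measured the bright members closely. Differences are given on the log2 scale as the value of array 2 less that of array 1, after the median difference of the bright probe sets was taken off. Over the 12 bright members the differences ran from -0.12 for Ccl5 to 0.49 for Cxcl9, with 8 higher on array 2, and their median size was 0.11, beside 0.12 over all 3731 bright genes. The pooled SD on the log2 scale was 0.137 for the bright members and 0.152 for all bright genes. For the 16 members above the control but not bright on both arrays, Ccr2 included, the median size was 0.32, beside 0.26 over 2363 such genes, and 0 of these members but 3.64% of such genes were more than 2-fold apart. For the 16 members not above the control on both arrays it was 0.38, beside 0.17 over 2157 such genes, where the floor replaced low values.

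More than 2-fold apart between the arrays were 5 of 44 members, beside 4.67% of all named genes. They were Cxcl1 and Ccr9, higher on array 2 by 2.55-fold and 2.19-fold, and Ccr1l1, Ccl4 and Ccl12, higher on array 1 by 2.26-fold, 2.11-fold and 2.05-fold, counted with the floor. None of the 5 exceeded the bacterial control on both arrays. Within the class of genes not above the control on both arrays, 5 of 16 members were more than 2-fold apart. Of the 2157 named genes of that class 13.7% were. Of the bright members 0 of 12 were more than 2-fold apart, beside 0.107% of bright genes.

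**Figure D3:**
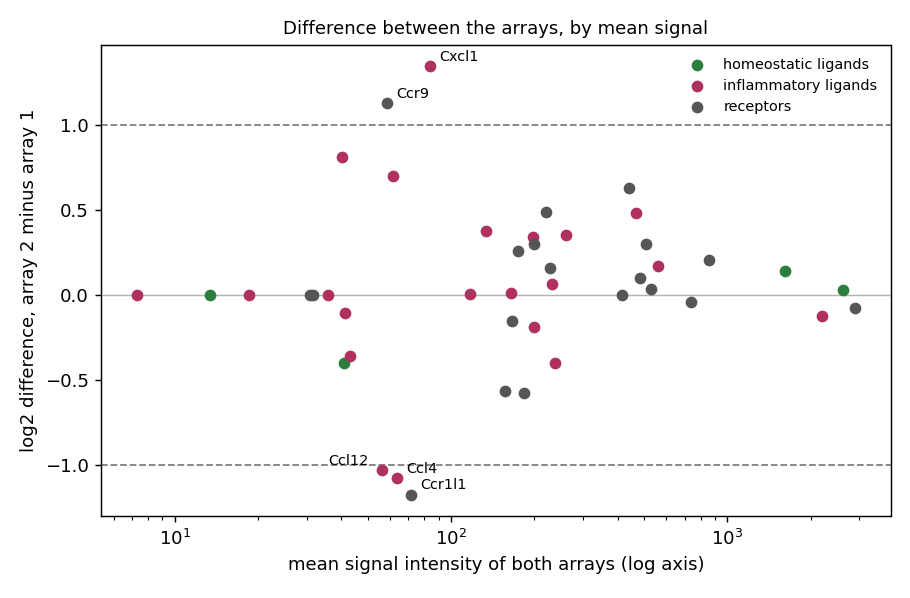
Log2 difference, array 2 minus array 1, against the mean intensity of both arrays (log axis), with a point for each of the 44 members coloured by group. Dashed lines mark 2-fold gaps, and points at or near a difference of 0 on the far left had both values at the floor. The 5 named members beyond the lines have mean intensities from 56.4 to 84.05, and the members with high intensities lie near 0.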

How the data were processed

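RNA of 1 group of 2 spleen arrays was analysed from the deposited value table, which holds a linear signal intensity for each of 12488 probe sets. In the deposited intensities the mean without the lowest and highest 2% is near 500 on both arrays (499.8 and 499.5), as after scaling to a common target, a step that no label states. The software, the detection calls and the genome build are not given in the sources used here. The 66 probe sets with the AFFX prefix were left out as controls. GEO's platform annotation named a single gene for 10833 probe sets, several for 396 and none for 1193. Of the former, 10817 matched the RefSeq gene table and 0 symbols changed.

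Each gene took the value of the brightest probe set that names it alone, by mean log2 intensity, with a floor at the 20th percentile of the array. Members, lists, pairs and settings were chosen with earlier results of these data known. The promoter motifs and the windows printed were chosen after the members' values were seen. Described by value were all homeostatic ligands, receptors, bright members and members that crossed the cutoff or lay over 2-fold apart. Of each pathway list, the 4 brightest and all that were not bright were named. Ltbr and the other inflammatory ligands were named beyond that rule. Protein features were not analysed here. No test was made. The code was tested on simulated data. Python 3.11.15, numpy 2.4.6, pandas 2.3.3, statsmodels 0.14.6 and matplotlib 3.10.9 were used.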

Additional observations from a re-analysis of the deposited data

Results flagged for a closer look

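The probe sets for the copies of Ccl19 and Ccl21 carried signal outside the single-gene measurement. Their mean intensities were 3357.1 and 5559.2, above the highest bacterial control and above the brightness cutoff on both arrays. With 2 arrays, no group was large enough to look for single arrays that stand apart, and with 1 group no effects of groups were compared.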

How the results depend on the processing

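The 12 bright members were the same 12 genes with a mean taken over probe sets, on array 1 alone, and without probe sets whose suffix marks several targets or relaxed selection. On array 2 alone Ccr2 joined them, which made 13, beside 47.6% of all named genes. With the cutoff at the 50th percentile 14 members were bright, beside 55.7% of all named genes. With the cutoff at the 75th percentile 6 members were bright, beside 28.5% of all named genes: Ccl5, Ccr6, Cxcl12, Cxcl13, Cxcr4 and Cxcr5. There, 1 inflammatory ligand, 3 receptors and 2 lymphotoxin path genes were bright. With the highest bacterial control as the cutoff 28 members, 11 inflammatory ligands, 15 receptors and 12 pairs passed, beside 73.9% of all named genes. With probe sets that name several genes added, 4 homeostatic ligands and 5 pairs were bright. With the dual-use and plasma ligands left out, 3 of 15 inflammatory ligands were bright. The members above background, 28, were 10 with a cutoff at the median plus 3 median absolute deviations of control probe sets. That cutoff lay at 444 and 247, so above the brightness cutoff on array 1. It is too high to come from the 15 bacterial controls alone, whose highest signals were 95 and 76.2. The count of 10 is therefore not a count above the bacterial background. The median size of the log2 difference, 0.20, was 0.31 with no floor and 0.11 over bright genes only, and the count over 2-fold apart, 5, was 0 over bright genes only. Of 79 summary values under alternatives, 65 stayed within 1.5 times the main value and the 14 named here did not. Quantile and loess normalization and no centring each left 5 members over 2-fold apart. The cutoff decides the calls of the 6 bright members lost at the 75th percentile, and dim members are limited by signal over background. No paired analysis was possible because there is 1 group.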

Other observations

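Many members lie side by side in the genome, and their calls in spleen RNA can be read along the gene order of RefSeq assembly GRCm38.p6. The counts below stand beside 45.2% of all named genes that were bright. On chromosome 11 the neighbours Ccl2, Ccl7, Ccl11, Ccl12, Ccl8 and Ccl1 follow each other with 0 other coding genes between them. None of these 6 was bright, and the first 5 lay at or below the bacterial controls on both arrays. After 25 other coding genes come Ccl5, Ccl9, Ccl6, Ccl3 and Ccl4, again with 0 between them, of which Ccl5 and Ccl9 were bright. On chromosome 5 Cxcl9 and Cxcl10 are separated by 1 other coding gene, and the former was bright while the latter was not. On chromosome 9 the neighbours Xcr1, Ccr1, Ccr1l1, Ccr3 and Ccr2 held 1 bright gene, Xcr1, and Ccr2 passed the cutoff on array 2. The neighbours Cx3cr1 and Ccr8 gave a bright signal and a signal below the controls.

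By structural class, as the symbols give it, 2 of 14 CC ligands and 3 of 8 CXC ligands were bright. Pf4, whose symbol names no class, was left out of these counts and was not bright. Among receptors, 2 of 9 of the CC class and 3 of 4 of the CXC class were bright, and 45.2% of all named genes were. These are counts over few genes with shared sequence and position, and no test was made of them.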
